A study of Homo sapiens with 3 samples.

Results

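The comparison described here is the knockdown of the fusion gene PAX3-FOXO1 against a control siRNA in Rh-30 cells, with 1 array for each condition. Rh-30 is an established alveolar rhabdomyosarcoma (ARMS) cell line that carries PAX3-FOXO1. The control cells received a control siRNA (siCont) and the knockdown cells an siRNA aimed at the fusion junction of the PAX3-FOXO1 transcript (siPF), each at 5 nM, and total RNA was taken after 24 h and measured on Affymetrix U133 Plus 2.0 arrays. Another array held RNA of the same line after an siRNA against B7-H3 (siB7-H3), the protein of the gene CD276, and its values are given beside those of siPF where they help, with the same siCont array under both comparisons. All cells had the transfection reagent in common, only 1 siRNA was used per gene, and Rh-30 is a single line.

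On this platform a gene is read by 1 or more probe sets, and the deposited value of a probe set is an intensity on a linear scale. A probe set was used when the higher of its siCont and siPF intensities was at least 200. The difference between the arrays was log2(siPF/siCont), so that 1 is 2-fold higher and -1 is 2-fold lower in siPF, and the value of a gene was the median over its probe sets. Of 19775 genes named on the array, 9710 had a probe set at this level and 10065 did not. The 9710 genes fell into 2636 with 2 or more such probe sets that all moved in 1 direction, 2130 with 2 or more that did not, and 4944 with 1. The first class is called agreeing below and the last is described apart. Each difference lies between 2 single arrays, so that no replicate error and no test could be had. The probe sets of a gene read the same RNA on the same arrays and are not replicates.

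PAX3-FOXO1 joins the DNA-binding part of PAX3, a transcription factor of muscle precursors, to the activating part of FOXO1, a forkhead transcription factor. The fusion protein is the driver of most ARMS and binds enhancers together with the myogenic factors MYOD1 and MYOG. ARMS cells express early muscle regulators but do not complete differentiation, in which myogenin (MYOG) and MEF2 factors turn on the proteins of the sarcomere, the contractile unit of muscle.

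Median intensities were 70.6, 71.7 and 70.7, in the order siCont, siPF, siB7-H3, and the mean after trimming 2% of the values at each end was 500.1 on all 3 arrays. The 3′ to 5′ intensity ratio of GAPDH, a sign of RNA integrity, was between 0.907 and 0.941. Of 11 markers of rhabdomyosarcoma, 9 reached 200 on every array, and CDH3 and TFAP2B stayed below 36 on all 3. Of 14 markers of other cells, 1 reached 200, PECAM1, at 699 in siCont and 621 in siPF, and the epithelial markers EPCAM, KRT5 and KRT14 were at 15.3 or less in both. Transcripts added to every sample as hybridization and labelling controls, read by 33 probe sets at this level, were higher in siPF by a median of 0.21 on the log2 scale (SD 0.19). The median over all 9710 genes was 0.02 as deposited and -0.20 when the arrays were centred on these added transcripts.

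FOXO1 was lower in siPF at both probe sets that reached the level. In the order siCont, siPF, siB7-H3, which is kept for all sets of 3 values, the brighter probe set gave 678, 249 and 650.0 and the other 358, 88.4 and 373, so that only the siPF array was low. The log2 differences between siPF and siCont were -1.45 and -2.02. PAX3 differed less, with 381 in siCont and 329 in siPF at one probe set and 233 and 194 at another, log2 differences of -0.21 and -0.27. The siRNA is aimed at the junction, and where the probes of these probe sets lie relative to it is not given in the sources used here. A probe set of either gene also reads its unfused transcript. CD276 was at 1486 in siCont and 1381 in siPF at its brighter probe set and at 460 and 349 at the other, log2 differences of -0.11 and -0.40. On the siB7-H3 array, where it is the target, the same probe sets gave 362 and 11.4.

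Probe sets of the same gene gave an estimate of how far a single difference varied. Over 4766 genes with 2 or more probe sets at the level, the SD between the brightest and the second probe set of a gene was 0.25 on the log2 scale, for a single probe set. With the genes put into 4 equal bins by their dimmer probe set, it was 0.33 in the dimmest bin and 0.16 in the brightest. The direction agreed over all probe sets in 55.3% of the genes. That share was 21.0% where the median was below 0.1 and 90.3% where it was between 0.5 and 1. All 53 genes (1.11%) with a median past 2-fold agreed in direction.

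**Figure D1:**
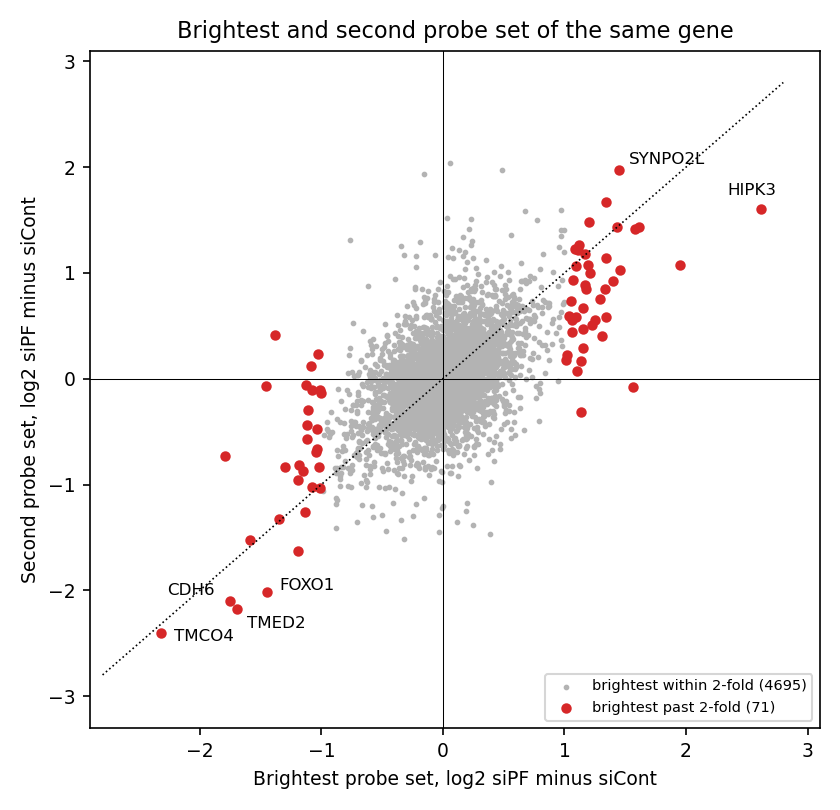
Log2 difference between siPF and siCont at the brightest probe set (x axis) and the second brightest probe set (y axis) of the 4766 genes with 2 or more probe sets at the level. Each point is a gene, red points have a brightest probe set past 2-fold, and the dotted line marks equal values. HIPK3 lies in the upper right corner and TMCO4, TMED2, CDH6 and FOXO1 in the lower left.

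A brightest probe set past 2-fold was mostly, but not always, followed by the second. Of 41 genes whose brightest probe set was at least 2-fold higher, the second was higher in 39 and at least 2-fold higher in 17, with a median of 0.84. Of 30 genes whose brightest probe set was at least 2-fold lower, the second was lower in 27 and at least 2-fold lower in 10, with a median of -0.77. No gene had one probe set at least 2-fold higher and another at least 2-fold lower.

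Among the 4766 genes with 2 or more probe sets, 35 (0.734%) agreed and were at least 2-fold higher in siPF and 18 (0.378%) agreed and were at least 2-fold lower. At 1.5-fold the counts were 154 (3.23%) and 135 (2.83%). Of the 35 higher genes, 19 had all their probe sets at 200 or more on both arrays and 11 had every probe set past 2-fold. For the 18 lower genes these counts were 6 and 10. When intensities under 200 were raised to 200, 25 of the 35 and 10 of the 18 were still past 2-fold. Over all 9710 genes, 110 (1.13%) were at least 2-fold higher and 72 (0.742%) at least 2-fold lower, so that 60.4% of the genes past 2-fold were higher. This split depended on the scaling, and with the arrays centred on the added transcripts 23.6% were higher. The counts of agreeing genes were then 9 higher and 56 lower.

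**Figure D2:**
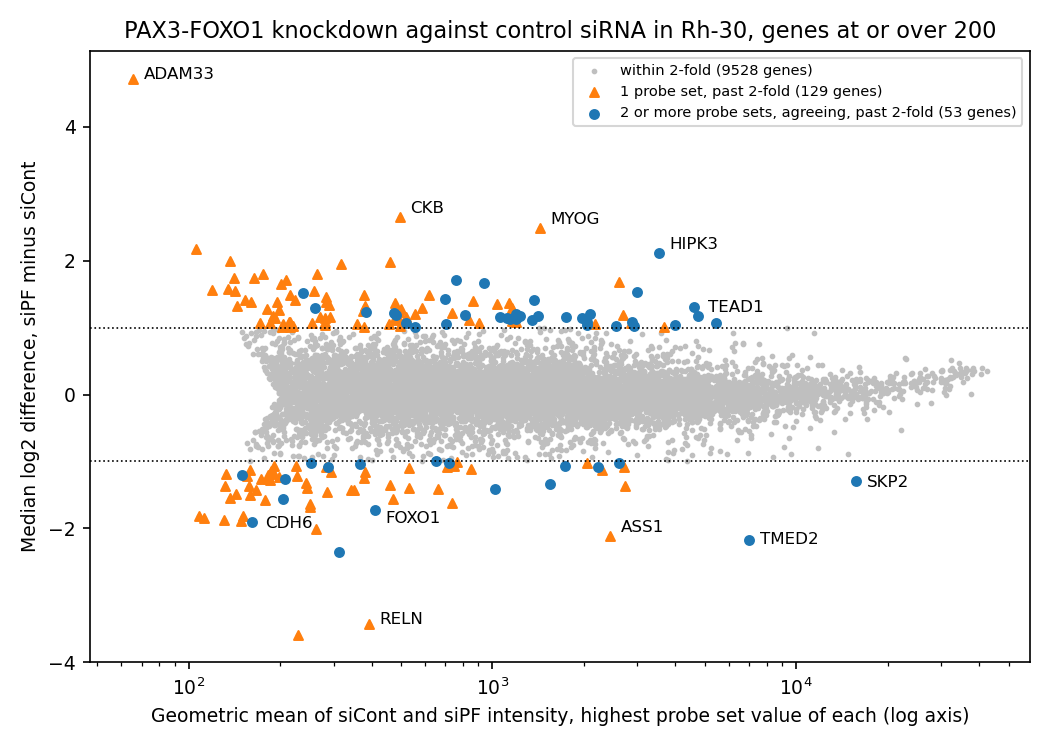
Log2 difference between siPF and siCont (y axis) against the level of the gene (x axis, geometric mean of the highest siCont and the highest siPF intensity, log axis) for 9710 genes. Blue circles are agreeing genes and orange triangles genes with 1 probe set past 2-fold, grey points lie within 2-fold, and the dotted lines mark 2-fold. The largest differences lie toward the left of the plot. Further right, HIPK3 and TEAD1 are among the higher genes and TMED2 and SKP2 among the lower.

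TMCO4, TMED2 and CDH6 had the lowest values among the agreeing genes, and the least changed probe set of each was also far past 2-fold. TMCO4 gave 696 in siCont and 140 in siPF at one probe set and 534 and 101 at the other. TMED2, a cargo receptor of the vesicles between the endoplasmic reticulum and the Golgi apparatus, was much brighter, and its 3 probe sets went from 12636 to 3896, from 5125 to 1135 and from 3502 to 606. CDH6, a cell adhesion protein of the cadherin family, gave between 266 and 313 in siCont and between 72.7 and 84.0 in siPF at 4 probe sets. The log2 differences were -2.36 for TMCO4, -2.18 for TMED2 and -1.90 for CDH6. The siB7-H3 array gave 759 and 528 for TMCO4, 13191 at the brightest probe set of TMED2 and 259 to 321 for CDH6, all near siCont.

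Genes of cell division, the cytoskeleton and signalling were also among the lower ones. SKP2, the F-box protein that marks the cell cycle inhibitor p27 for degradation, had the highest intensities of the 18. It gave 21340, 10478 and 7863 in siCont and 11624, 3942 and 3226 in siPF, a log2 difference of -1.29. Its siB7-H3 values were 19779, 7736 and 4270.0. DIAPH3, a formin that builds actin filaments, went from 2469 to 970.0 and from 449 to 179, a log2 difference of -1.34. ARRB1, or beta-arrestin 1, which turns off and relays signals of G protein-coupled receptors, was lower at all 7 of its probe sets, the brightest at 3351 in siCont and 1477 in siPF, with a median of -1.09. POU4F1, a transcription factor of sensory neurons, gave 1542 and 676 at one probe set and 1358 and 439 at the other, a log2 difference of -1.41. The brightest probe sets of DIAPH3, ARRB1 and POU4F1 were at 2192, 3264 and 1576 in siB7-H3.

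Some of the 18 were dim, and their lower values lay under the level on the siPF array. STX11, a membrane fusion protein known from killer lymphocytes, gave 354 and 263 in siCont and 118 and 91.4 in siPF. STYK1, a kinase-like membrane protein, was at 223, 102 and 61.9 at one probe set and at 221, 92.2 and 76.8 at the other, so that it was low on both knockdown arrays. FCRLA, known from B cells, was lower at 3 probe sets, the brightest at 418 and 198. ARHGDIB was at 343 and 99.1. When intensities under 200 were raised to 200, the log2 difference of STYK1 was -0.15 and that of CDH6 -0.56, and neither gene remained past 2-fold. The other agreeing genes at least 2-fold lower were SH3BP5, MME (the membrane peptidase neprilysin), ABHD5 (an activator of fat breakdown) and the zinc finger genes ZNF253, ZNF91 and ZFP69B. EMP1 and CLDND1, both membrane proteins, were among the lower genes whose least changed probe set differed most, without reaching 2-fold. EMP1 went from 8043 to 4362 and from 3035 to 1633, and CLDND1 from 3243 to 1777 and from 2705 to 1494.

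HIPK3, a nuclear protein kinase, had the largest value of the agreeing genes that were higher in siPF. One probe set gave 1427, 8755 and 3104 over the 3 arrays and the other 107, 325 and 207, so that siPF was the highest of the 3 arrays at both. The log2 difference was 2.11. SYNPO2L, an actin-binding protein of the Z-disc of muscle, went from 459 to 1252 and from 309 to 1207, with 706 and 677 in siB7-H3 and a log2 difference of 1.71. TEAD1, which binds the CATTCC element of muscle genes, gave 3165, 449 and 228 in siCont and 7122, 1021 and 450 in siPF, and its siB7-H3 values of 6417, 1023 and 352 were close to siPF.

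The other higher genes whose least changed probe set differed most came from membrane traffic, the cytoskeleton and other groups. EMP2, a membrane protein, went from 587 to 1491, from 273 to 866 and from 142 to 659 at its 3 probe sets, with 1337, 853 and 655 in siB7-H3. SCAMP1, a protein of secretory carrier vesicles, was higher at all 5 probe sets, the brightest at 702 and 1784. RDX, or radixin, which links actin to the membrane, was higher at 3, the brightest at 2414 and 6613. TRIB2, a pseudokinase, went from 1703 to 5220 and from 403 to 1093, a log2 difference of 1.53. STEAP3 is an iron reductase, STX2 a membrane fusion protein, LCOR a nuclear receptor corepressor, DHX40 an RNA helicase and TACC2 a centrosome protein, and their differences lay between 1.11 for TACC2 and 1.43 for STEAP3. IQSEC1 (an activator of the GTPase ARF6) and the imprinted antisense RNA KCNQ1OT1 had dimmer probe sets, with log2 differences of 1.28 and 1.19. With intensities under 200 raised to 200, STEAP3, STX2, IQSEC1 and KCNQ1OT1 were at 0.90, 0.78, 0.87 and 0.75, short of 2-fold. The values of LCOR, DHX40 and TACC2 did not change.

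**Figure D3:**
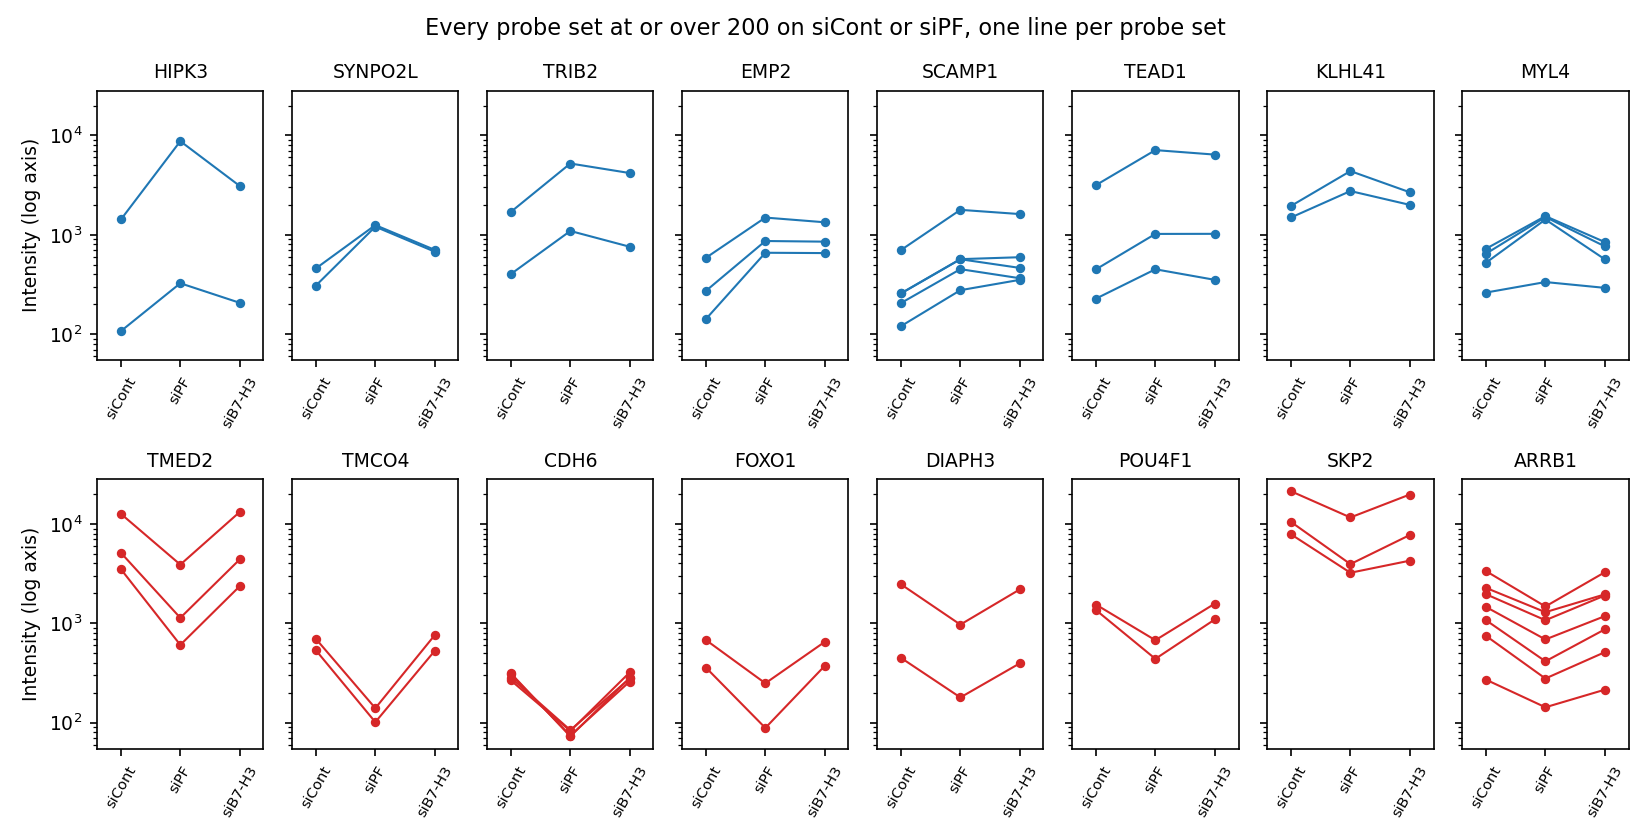
Intensity (log axis) of every probe set at the level on siCont, siPF and siB7-H3, 1 line per probe set, for 8 agreeing genes higher in siPF (upper row, blue) and 8 lower in siPF (lower row, red). The lines of TMED2, TMCO4, CDH6 and FOXO1 return near the siCont level on the siB7-H3 array, and those of EMP2, SCAMP1 and TEAD1 stay near the siPF level.

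The values of the siB7-H3 array differed between the higher and the lower genes. Over the 35 higher genes the median log2 difference was 1.17 in siPF and 0.90 in siB7-H3, with a siB7-H3 range from -0.47 to 1.65. Over the 18 lower genes it was -1.23 in siPF and -0.16 in siB7-H3, ranging from -1.69 for STYK1 to 0.12 for ZNF91. Both comparisons share the siCont array, so that an error of that array enters both. MRAS, a small GTPase of the RAS family, was the higher gene with the lowest siB7-H3 value, at 1287, 3249.8 and 777 over the 3 arrays. EMP2 had the highest siB7-H3 value.

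The genes that regulate muscle differentiation were higher in siPF more often than lower. Of 38 measured myogenic regulators 30 reached the level, 23 above siCont and 7 below, with a median log2 difference of 0.28, against 52.6% above and a median of 0.02 over all genes. Of the 28 at 200 or more on both arrays 21 were above, with a median of 0.24. At least 2-fold higher were 5 of the 30 (all genes 1.13%), MYOG, HIPK3, VGLL2, RBM38 and TEAD1, and none was at least 2-fold lower (all genes 0.742%). The list was written with earlier results of these data known. HIPK3 also had the largest value of the agreeing genes, so that its count here is no separate result. MYOG, the factor that commits myoblasts to fusion, was read by 1 probe set, which gave 605, 3386 and 1269 over the 3 arrays. Its log2 difference was 2.48. VGLL2, a cofactor of TEAD proteins, was at 647 and 1656 and RBM38, an RNA-binding protein, at 373 and 916, each at 1 probe set. MYOD1, the factor upstream of MYOG, was lower, with 11471, 8688 and 13046 over the 3 arrays.

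Other muscle regulators lay between these extremes. MEF2C, named after its values were seen, was higher at 3 probe sets, from 1687 to 2834, from 760 to 1471 and from 360 to 680, a log2 difference of 0.91. MYMX, or myomixer, which fuses myoblasts, had the same value at 1 probe set, with 4528 in siCont and 8518 in siPF. RBM24, a splicing factor of muscle, was at 6177 and 8625, and TCF12, a partner of the myogenic factors, at 8457 and 10203. MYF5, also named after its values were seen, went the other way, from 415 to 213.

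The window of 250 bases before the start is given for 3 muscle genes past 2-fold for which a promoter was found. Each holds an E-box, the CANNTG sequence that MYOG and MYOD1 bind. The E-box was not the ground for the choice, and it is common among promoters, as counted below. Sequences are those of RefSeq on GRCh38.p14, written 5′ to 3′ on the strand of the gene, and capitals mark CANNTG and the MEF2 type sequence CTANNNNTAG. Forms that differ from CTANNNNTAG at an end, such as ctatatttat in the MYOG window, were neither marked nor counted. A match of letters is a description and not a shown binding site, and a missing match does not show that a site is absent.
MYOG, chr1:203086013-203086262, minus strand: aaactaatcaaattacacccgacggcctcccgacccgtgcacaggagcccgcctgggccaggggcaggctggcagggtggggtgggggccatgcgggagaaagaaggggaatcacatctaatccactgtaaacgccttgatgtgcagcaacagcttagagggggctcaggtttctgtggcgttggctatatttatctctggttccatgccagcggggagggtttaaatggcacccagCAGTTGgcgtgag
KLHL41, chr2:169509452-169509701, plus strand: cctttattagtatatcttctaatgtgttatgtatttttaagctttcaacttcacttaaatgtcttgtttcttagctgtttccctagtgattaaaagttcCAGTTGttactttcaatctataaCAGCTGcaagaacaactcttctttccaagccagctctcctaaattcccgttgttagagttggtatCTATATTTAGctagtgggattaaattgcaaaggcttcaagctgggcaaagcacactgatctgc
SYNPO2L, chr10:73656030-73656279, minus strand: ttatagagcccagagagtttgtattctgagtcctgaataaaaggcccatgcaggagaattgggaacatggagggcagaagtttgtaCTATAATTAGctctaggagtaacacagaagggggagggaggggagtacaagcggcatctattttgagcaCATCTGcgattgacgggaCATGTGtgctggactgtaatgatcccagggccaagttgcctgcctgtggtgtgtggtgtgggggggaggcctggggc

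The motifs were counted on both strands in windows from 250 bases before to 50 after the start. CANNTG, which includes CAGCTG, was in 68.9% of 27305 RefSeq promoters and in 58.7% of those of 8131 genes at the level. It was in 13 of 27 promoters found for the 35 agreeing higher genes (48.1%) and in 10 of 14 for the 18 agreeing lower genes (71.4%). The promoters of sarcomere genes above siCont held it in 13 of 14 (92.9%). They were drawn from 18 genes, among them XIRP1 and others that reached the level in siPF alone. Their median GC content was 55.2%, against 65.3% for the genes at the level and 58.3% for all promoters. It was 72.7% for the agreeing higher genes and 67.3% for the agreeing lower genes. Whether the shares of CANNTG differ beyond GC content was not tested. CTANNNNTAG was rare, at 2.09% of the genes at the level, and was in 3 of the 27 and 3 of the 14 sarcomere promoters. CATTCC, the TEAD1 element, was in 10.4% of the genes at the level and in 3 of the 27. These counts are small and were not tested.

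Most genes of the sarcomere were below this level on both arrays. Of 67 measured genes, 46 stayed below 200 on both arrays and 21 did not, 18 of them above siCont and 3 below, with a median log2 difference of 0.71. At least 1.5-fold higher were 12 (all genes 4.92%), and none was at least 1.5-fold lower (all genes 3.77%). At least 2-fold higher were 5 (23.8%, all genes 1.13%), XIRP1, SYNPO2L, MYL4, TNNI1 and KLHL41. With intensities under 200 raised to 200, XIRP1 was at 0.92, short of 2-fold. Since the higher of both arrays decides, genes such as XIRP1, MYL11, SYNPO2 and TMOD1, which reached 200 in siPF alone, had to be higher, and their count is no result. Of the 17 genes of the list at 200 or more on both arrays 14 were above siCont, with a median of 0.52. The median of the list was 0.40 when intensities under 200 were raised to 200 and 0.43 when the arrays were centred on the added transcripts.

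MYL4, the myosin light chain of embryonic and atrial muscle, was higher at all 4 of its probe sets. They gave 724, 1542 and 845, then 646, 1509.8 and 766, then 524, 1426 and 567, and at the dimmest 262, 335 and 292, so that siPF was the highest array at each. KLHL41, a stabilizer of the thin filament protein nebulin, went from 1953 to 4381 and from 1494 to 2757. TNNI1, the slow troponin I, was at 1970, 4121 and 2763 over the 3 arrays at 1 probe set, and XIRP1, an actin-binding protein, at 115, 378 and 293. The brightest genes of the list changed less. ACTC1, the cardiac actin of immature muscle, was at 26987 and 38707, TNNT1 at 9180 and 11268 and MYL6B at 5232 and 6501. TPM2, a tropomyosin, had probe sets of both directions and a median of -0.10.

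**Figure D4:**
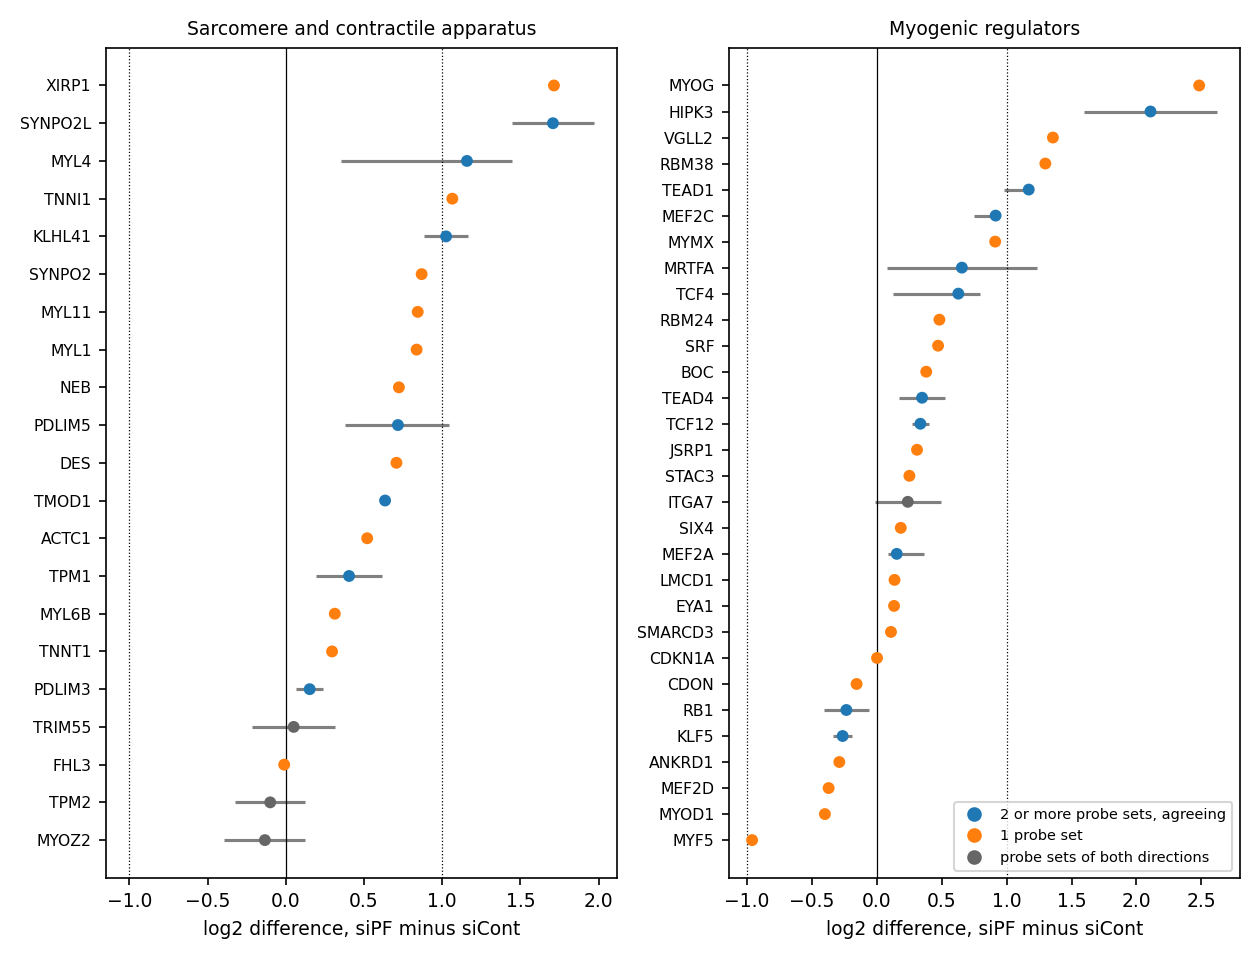
Log2 difference between siPF and siCont (x axis) of each sarcomere gene (left) and each myogenic regulator (right) at the level. Points are gene medians, blue for agreeing genes, orange for genes with 1 probe set and grey for genes with probe sets of both directions, bars run from the lowest to the highest probe set, and dotted lines mark 2-fold. MYOG and HIPK3 have the highest values of the regulator list and XIRP1 and SYNPO2L of the sarcomere list, while MYF5 and MYOD1 lie below 0.

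Genes of the muscle membrane, its junctions and its calcium handling were more mixed. Of 36 at the level, 23 were above siCont and 13 below, with a median of 0.21, 2 at least 2-fold higher (5.56%, all genes 1.13%) and 1 at least 2-fold lower (2.78%, all genes 0.742%). CKB, the brain form of creatine kinase, went from 198 to 1244 at 1 probe set, with 487 in siB7-H3, and DOK7, which activates the receptor of the nerve-muscle synapse, from 757 to 1789. SCN4A, the sodium channel of skeletal muscle, went from 569 to 254. STAC3, CHRNA1, ATP2A2 and CAV3 were the brightest, and of these the calcium pump ATP2A2 showed how far probe sets can part, with log2 differences of 0.03, 0.79 and 1.56 at intensities of 4618, 1314 and 90.8 in siCont.

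Genes that hold back muscle differentiation were also above siCont in the larger number. Of 31 at the level 20 were above and 11 below, with a median of 0.14 that turned to -0.06 when the arrays were centred on the added transcripts, and none was past 2-fold. The brightest, ID1, SNAI2, ID3 and NOTCH2, had values between -0.21 and 0.31. The highest values of the list, named after they were seen, were those of NOTCH1 and DLL1. The receptor NOTCH1 was at 1282 in siCont and 2521 in siPF, its ligand DLL1 at 1394 and 2635. Other genes of the Notch pathway on the list had smaller values, such as RBPJ at 0.67, HEY1 at 0.32, JAG1 at 0.01 and JAG2 at -0.02.

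Genes written down as PAX3-FOXO1 targets from general knowledge, with earlier results of these data known, were lower in siPF more often than higher. Of 54 at the level 33 were below siCont and 21 above, with a median of -0.26. At least 2-fold lower were 6 (11.1%, all genes 0.742%), ASS1, SKP2, HMGA2, POU4F1, RELN and STYK1, and at least 2-fold higher were 4 (7.41%, all genes 1.13%), CKB, MYOG, RASSF4 and DUSP4. Which of the 54 the fusion protein turns up or down was not used in the count. The paper chose STYK1 for follow-up because it was lower on these same arrays, so that its place among the 6 is no separate result. RELN and STYK1 were under 200 in siPF and CKB in siCont, so that the level limit fixed their direction. With intensities under 200 raised to 200 they were at -2.69, -0.15 and 2.64. Of the 45 targets at 200 or more on both arrays 18 were above siCont, with a median of -0.26. RELN, a secreted guide of migrating neurons, went from 1287 to 120.0 at 1 probe set, with 811 in siB7-H3, and ASS1, an enzyme of arginine synthesis, from 5094 to 1172, with 4762. HMGA2, a chromatin protein of embryonic tissue, went from 3390 to 1551 at the only 1 of its 9 probe sets that reached the level.

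The receptors on this list differed less, and their probe sets are given after their values were seen. CXCR4, a chemokine receptor, was at 947, 436 and 732 at its brightest probe set, at 760, 512 and 682 at the second and at 653, 427 and 542 at the dimmest, so that only 1 of its 3 probe sets was past 2-fold, and the median was -0.61. FGFR4, a growth factor receptor, was at 6854, 2135 and 1867 in siCont and 5182, 1658 and 1231 in siPF. MET, the receptor of hepatocyte growth factor, went from 7850 to 4605 at the brightest of 4 probe sets, with a median of -0.39. ABAT, which breaks down GABA, was lower at 3 probe sets, from 7761 to 3487 at the brightest, with a median of -0.87. CCND2 (cyclin D2) and TNC (the matrix protein tenascin C) were higher at all probe sets, the brightest from 19546 to 27239 and from 8942 to 13828, and GADD45A, a stress gene, was at -0.26.

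Genes of the cell cycle differed little as groups. Of 52 genes of G1/S and DNA replication none was past 2-fold, 34 were above siCont and 18 below, and the median of 0.06 turned to -0.15 with the arrays centred on the added transcripts. Of 50 genes of G2 and mitosis none was past 2-fold either, 29 were above and 21 below, and the median of 0.02 turned to -0.18 with that centring and to -0.07 without probe sets of several transcripts. CDK4, the kinase of the G1 cyclins, was the brightest, at 35494 in siCont and 46891 in siPF, and TYMS, UHRF1, PTTG1, SMC4, CDK1 and UBE2C lay between -0.08 and 0.18. Among 28 inhibitors and p53 targets 14 were above and 14 below. GADD45G, a stress gene, was the only one past 2-fold (3.57%, all genes 1.13%), at 241 in siCont and 601 in siPF. CDKN1A, the inhibitor p21, named after its values were seen, was at 2161 and 2163.

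Genes of chemotaxis and motility were spread to both sides. Of 40 at the level 17 were above siCont and 23 below, with a median of -0.06. RELN and STYK1 were at least 2-fold lower (2 of 40, all genes 0.742%) and CCL2 and EFNA1 at least 2-fold higher (2 of 40, all genes 1.13%). Each of them reached 200 on only 1 of siCont and siPF, so that the level limit fixed its direction. With intensities under 200 raised to 200, RELN was at -2.69, STYK1 at -0.15, CCL2 at 1.30 and EFNA1 at 0.55. Of the 28 genes of the list at 200 or more on both arrays 13 were above siCont, with a median of -0.02. CCL2, a chemokine that draws monocytes, went from 142 to 493 at 1 probe set, with 214 in siB7-H3, and EFNA1, an ephrin, from 142 to 294. RHOA, CFL1 and RAC1, which move the actin skeleton, had values of 0.07, 0.17 and -0.21.

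Matrix and adhesion genes were mostly above siCont. Of 50 at the level 38 were above (76.0%, all genes 52.6%) and 12 below, with a median of 0.26. ELN (elastin), MFAP4 and ADAM33 were at least 2-fold higher (3 of 50, all genes 1.13%) and CDH6 at least 2-fold lower (1 of 50, all genes 0.742%). ELN went from 122 to 469 and from 104 to 219 at 2 probe sets, and MFAP4, which binds elastin fibres, from 226 to 635 at 1. ADAM33, a metalloprotease, was at 12.8, 337 and 57.3 over the 3 arrays at 1 probe set. Its siCont intensity was far under the level, and with intensities under 200 raised to 200 its log2 difference was 0.75, short of 2-fold. ELN, at 0.68, and CDH6, at -0.56, were then also short of 2-fold. ELN, ADAM33 and CDH6 had no probe set at 200 or more on both arrays, so that the level limit fixed their direction. Of the 40 genes of the list at 200 or more on both arrays 31 were above siCont, with a median of 0.18. Of the brightest genes, ITGB1, SPARC and LAMC1 lay between 0.01 and 0.13 and TNC was at 0.56.

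Signalling genes showed single members past 2-fold. Among 39 growth factor genes 22 were above siCont and 17 below, with a median of 0.03 that turned to -0.17 with the arrays centred on the added transcripts. DUSP4, a phosphatase of ERK, was higher at 3 probe sets, from 356 to 760.0 at the brightest, and FGF8 went from 212 to 82.3 at 1. They were the only genes of the list past 2-fold, 1 higher (2.56%, all genes 1.13%) and 1 lower (2.56%, all genes 0.742%). FGF8 was under 200 in siPF, so that the level limit fixed its direction. With intensities under 200 raised to 200, FGF8 was at -0.08. Of 11 feedback inhibitors and ETV factors that ERK signalling induces, DUSP4 included, a group chosen after the values were seen, 8 were below siCont and 3 above, with a median of -0.26. DUSP6 was at -0.61 and ETV4 at -0.58, while EGR1, another gene induced by ERK, was at 0.15. Of 48 genes of TGF-beta, BMP, Wnt and Hedgehog signalling 34 were above siCont and 14 below, with a median of 0.27, which was 0.09 with a limit of 400 and 0.07 with that centring. TGFB2, HHIP and TGFB1 were at least 2-fold higher (3 of 48, all genes 1.13%). HHIP, which binds Hedgehog ligands and is induced by them, was higher at 4 probe sets, the brightest from 2040 to 4066, and GLI1 and PTCH1, which the pathway also induces, were at 0.74 and 0.56 and were named after their values were seen. TGFB2 and TGFB1 were dim, from 99.6 to 259 and from 152 to 306 (siB7-H3 94.5 and 247). Both were under 200 in siCont, so that the level limit fixed their direction.

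The lists on metabolism and stress held few genes past 2-fold. For amino acid metabolism 13 of 38 were above siCont, with a median of -0.08. ASS1, lower in siPF, was the only gene past 2-fold (2.63%, all genes 0.742%). The lists of cholesterol and fatty acid synthesis (11 of 27 above, median -0.04) and of the unfolded protein response (8 of 27 above, median -0.07) had none. Of 33 genes of hypoxia and glycolysis 23 were above, with a median of 0.07 (-0.13 with the arrays centred on the added transcripts). P4HA2, a collagen hydroxylase, went from 129 to 361 and was the only one past 2-fold (3.03%, all genes 1.13%). It was under 200 in siCont, so that the level limit fixed its direction. With intensities under 200 raised to 200, P4HA2 was at 0.85, short of 2-fold. Of 28 RNA sensors and interferon-stimulated genes 15 were above, with a median of 0.03 (-0.18 with that centring and -0.03 without probe sets of several transcripts) and none past 2-fold. IFITM3 and IFITM2 were at 0.19 and 0.03 and IFI44 and ISG15 at -0.42 and -0.50.

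Ribosomal protein genes were above siCont in 37 of 41 cases, all 15 agreeing ones among them, with a median of 0.23 and none past 1.5-fold. The added control transcripts were higher by nearly the same amount, 0.21. The ribosomal median was 0.02 with the arrays centred on them, 0.0048 after quantile normalization and 0.20 with each array centred on its median. Among 19 genes of small RNA pathways 3 were at least 2-fold higher (15.8%, all genes 1.13%), the median was 0.06, and it turned to -0.14 with the arrays centred on the added transcripts. AGO4, an Argonaute protein, went from 369 to 1037 at 1 probe set, TNRC6A, which silences mRNAs with Argonaute, from 1261 to 3323 at the brightest of 3, and TNRC6C from 350 to 709 at 1. In siB7-H3 they were at 1088, 2272 and 683, and DICER1, which cuts microRNAs, was lower at 3 probe sets in siPF, with a median of -0.44. Of 18 neuronal genes 11 were below siCont, with a median of -0.19 that ran from -0.07 with a limit of 100 to -0.39 with the arrays centred on the added control transcripts. POU4F1 and RELN were at least 2-fold lower (2 of 18, all genes 0.742%), while TUBB3, the brightest, was at 0.23. RELN was under 200 in siPF, so that the level limit fixed its direction.

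**Figure D5:**
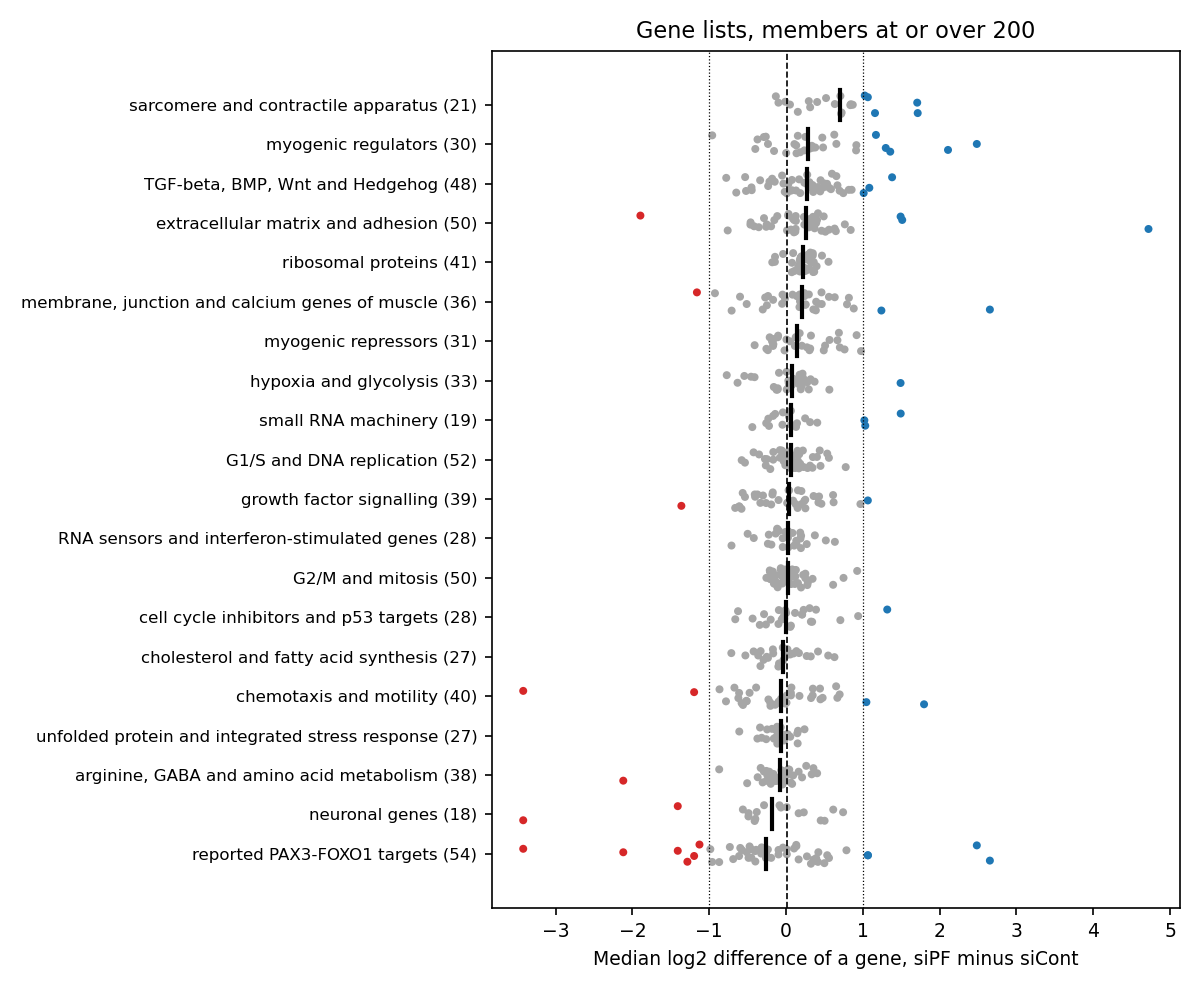
Log2 difference between siPF and siCont (x axis) of the members of each gene list at the level (points, number in brackets) with the list median (black bar) and the median of all 9710 genes (dashed line). Blue points are at least 2-fold higher and red points at least 2-fold lower. Sarcomere genes have the highest median, 0.71 (0.52 over those at 200 or more on both arrays). The list labelled reported PAX3-FOXO1 targets, written from general knowledge, has the lowest, -0.26. Centring the arrays on the added transcripts moves all genes down alike, and the medians of lists that lie between 0 and 0.21 then fall to about 0 or below.

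Genes with 1 probe set at the level were past 2-fold more often, and no second probe set at the level bears on them. Some have further probe sets that stayed under 200 on both arrays and were not used. HMGA2 has 9 probe sets in all and TNRC6C has 7. Of 4944 such genes 75 (1.52%) were at least 2-fold higher and 54 (1.09%) at least 2-fold lower, at 1.5-fold 314 (6.35%) and 224 (4.53%). Their probe set was below 200 on one of the arrays in 42 of the 75 and 35 of the 54. With intensities under 200 raised to 200, 45 and 27 were still past 2-fold. Among those at 200 or more on both arrays, EDIL3, an integrin-binding matrix protein, went from 232 to 916, and LBH, a transcriptional cofactor of limb and heart development, from 1456 to 4668. TNFRSF19, a receptor of the TNF family, was at 531, 1402 and 378 over the 3 arrays, and its difference turned to -0.053 with a limit of 100, where further probe sets of the gene enter. MEGF6 was at 296 and 766 and SH3PXD2A, a scaffold of podosomes, at 708 and 1823.

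The lower genes with 1 probe set at 200 or more on both arrays followed ASS1. NAF1, which assembles the telomerase and snoRNA particles, went from 1293 to 422, FAXDC2 from 805 to 274, and NT5E, the ectoenzyme CD73 that makes adenosine, from 574 to 213. KCNJ2, a potassium channel that sets the resting potential of muscle, went from 1081 to 408, with 540 in siB7-H3, and THOC7, of the mRNA export complex, from 4366 to 1701, with 4028. ZNF736 went from 864 to 329 and the pseudogene ZNF252P from 560 to 209. LRRC10B, named after its value was seen, went from 792 to 65.9, with 428 in siB7-H3. Its log2 difference of -3.59 rests on a siPF intensity under the level and was -1.99 with intensities under 200 raised to 200, against -2.69 for RELN and -2.12 for ASS1.

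Genes on either side of the limits show how narrow they are. HROB, at 197.3 in siCont and just over 200 in siPF, and MUC3A, just over 200 in siCont and at 136 in siPF, were the dimmest probe sets kept. CNPY3, at 199.9 and 198.6, and ARSK, at 160.1 and 199.97, were the brightest left out. TRABD, with a median of 1.01, was the last of the 35 higher genes and CLIC4, at 0.997, lay just outside. ZNF91, just past -1, was the last of the 18 lower genes, and ETS1, a transcription factor on the list of PAX3-FOXO1 targets, lay just outside at -0.99, with 6157, 867 and 285 in siCont and 3108, 416 and 234 in siPF.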

How the data were processed

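The authors deposited linear intensities, 1 for each probe set on each array, and their processing notes name Affymetrix Expression Console 1.4.1. How probes were summarized is not given in the sources used here. The platform annotation named 41091 of 54675 probe sets with 1 gene, 1801 with several and 11721 with none. Control probe sets were left out. Symbols were updated through Entrez numbers, and log2 differences were computed for probe sets whose higher intensity was at least 200, with Python 3.11.15, numpy 2.4.6 and pandas 2.3.3. No test was made, since each condition had 1 array, and the number of arrays limits the precision. The code was tested on simulated data.
The genes named were the targets, MYOG, CXCR4, STYK1, the 15 agreeing genes per direction with the largest smallest probe set difference, the 8 genes per direction with 1 probe set that reached 200 on both arrays, list members past 2-fold, the 4 brightest others of each list, and those nearest the limits. Further genes were named after their values were seen. The members and the 21 lists, written from general knowledge, were chosen with earlier results of these data known.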

Additional observations from a re-analysis of the deposited data

Results flagged for a closer look

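Probe sets without a single gene name were not used above. Of 2382 of them at an intensity of 200 or more, 30 (1.26%) were at least 2-fold higher in siPF and 17 (0.714%) at least 2-fold lower, which lies near the 1.23% and 1.001% of the 17585 probe sets named with 1 gene. They are given only because these probe sets entered no comparison.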

How the results depend on the processing

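The settings tried were other limits on the level, other scalings, other summaries of probe sets and dropping probe sets of several transcripts. With a limit of 100 in place of 200 the agreeing genes past 2-fold were 56 higher and 34 lower and those with 1 probe set 152 and 135, and the median of the list of markers of other cell types was -0.14 in place of 0.19. With a limit of 400 the agreeing higher genes were 23. With both intensities at 200 or more the counts were 22 and 8 for agreeing genes and 38 and 26 for genes with 1 probe set. With intensities under 200 raised to 200 the agreeing lower genes were 10, genes with 1 probe set 45 and 27, and the median of the sarcomere list 0.40. Without probe sets of several transcripts the agreeing lower genes were 10. With every probe set required to pass 2-fold the agreeing genes were 11 higher and 10 lower. With the arrays centred on the added control transcripts, a setting chosen after seeing the data, the agreeing genes were 9 higher and 56 lower, those with 1 probe set 41 and 105, and the sarcomere median 0.43. TNFRSF19 turned to -0.053 with a limit of 100, where further probe sets of the gene enter. The share of genes whose probe sets agree moved by less than 1.5 times under all 8 settings tried on it. Of 1499 values of single genes under other settings 69 moved by more than the spread between probe sets, 0.25, and 49 changed sign. Of 210 list medians 3 moved by more than that and 17 changed sign. Centring on the added transcripts shifts all genes by about 0.21, less than this spread, so that few values could count as moved under it. Under that setting 26 of the gene values and 8 of the list medians changed sign. The spread is that of a single probe set and is wide for the median of a list. No paired analysis was possible because each condition had 1 array. Intensities near 200 carry the largest spread between probe sets.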

Other observations

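Genes named ZNF or ZFP with a number, which code for zinc finger proteins, most of them repressors of transcription, were lower in siPF as a group chosen after their values were seen. Of 326 at an intensity of 200 or more, 215 were below siCont and 111 above, with a median log2 difference of -0.11 against 0.02 over all genes. At least 2-fold lower were 15 (4.60%, all genes 0.742%) and none was at least 2-fold higher. With both intensities at 200 or more, 6 of 295 were at least 2-fold lower, and the median was -0.09. The median was -0.14 after quantile normalization and -0.32, against -0.20 over all genes, with the arrays centred on the added transcripts. In siB7-H3 the same probe sets gave a median of 0.02, with 150 of the 326 below siCont and 2 at least 2-fold lower.
Chromosome 19, which holds large clusters of this family, had 144 of them at this level, 102 below siCont with a median of -0.15 and 10 at least 2-fold lower. The other 468 genes of chromosome 19 had a median of 0.10, with 151 below and none at least 2-fold lower. ZNF91 went from 881 to 480 and from 431 to 198, ZNF253 from 497 to 270 and from 487 to 214, and ZNF43 from 775 to 363 at 1 probe set. Members of this family are alike in sequence, so that a probe set may read more than 1 of them. Without probe sets of several transcripts, 169 of 259 were below siCont, with a median of -0.11 and 13 at least 2-fold lower.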
